A study of Homo sapiens with 2 samples.

Results

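The 10 genes described here encode subunits of the SWI/SNF chromatin remodelers: SMARCB1, SMARCC1, SMARCD3, SMARCE1, SMARCA4, SMARCA2, ARID1A, ARID1B, ARID2 and PBRM1. They are 10 of the 20163 protein-coding genes of the GENCODE annotation. Every open-chromatin peak within 3 kb of their transcription start sites (TSSs) or inside the genes was taken, together with every peak within 500 kb on either side of SMARCB1. This gave 210 of the 114060 peaks of the DMSO library and 165 of the 161184 peaks of the MAK683 library.

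The study treated G401 cells with an inhibitor of the Polycomb repressive complex PRC2. G401 is an established human line of kidney rhabdoid tumor origin, and this tumor type is defined by loss of SMARCB1, so both groups share that background. One group received the solvent DMSO and the other MAK683, a small molecule that binds the PRC2 subunit EED, at 3 μM, and both were collected after 3 days. Open chromatin was read out by ATAC-seq, which relies on the transposase Tn5 to cut and tag accessible DNA. With 1 library per group of 1 cell line, a difference between the libraries has no replicate check, no p-value is given, and the printed 95% intervals cover counting error only.

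SWI/SNF complexes use ATP to slide or evict nucleosomes and keep promoters and enhancers open. They exist as canonical BAF, PBAF and a smaller non-canonical form, which share a core and one ATPase and differ in their targeting subunits. SWI/SNF and Polycomb complexes oppose each other at many developmental genes, and tumors that lack SMARCB1 are known for their dependence on PRC2.

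The DMSO library held 16598348 tags after filtering and the MAK683 library 18265284. Peak height is the number of tags piled up at the summit per 1000000 filtered tags (RPM), so 1 tag was worth 0.0602 RPM in DMSO and 0.0547 RPM in MAK683. The lowest peak called had 6 tags in either library, and the median peak had 11 tags in DMSO and 10 in MAK683. Promoter height was in general lower in MAK683: among 14288 coding genes that had a promoter peak in each library, the log2 ratio (MAK683 over DMSO) had a median of -0.46, the baseline against which each member ratio is read.

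No peak was called at the SMARCB1 promoter or anywhere inside SMARCB1 in either library. SMARCB1 (ENSG00000099956, hg19 chr22:24129118-24180196, plus strand), a subunit that ties the complex to the nucleosome, was the single member without a promoter peak. The other 9 had a promoter peak in both libraries. A promoter peak was present at 72.7% of coding genes in DMSO and at 78.7% in MAK683, and 19.4% had none in either library. The reference promoter itself is not poor in CpG. From 250 bases before to 50 bases after the TSS it holds 25 CpG dinucleotides, against a median of 23 over 20140 coding promoters. Among the 9215 coding promoters with at least 25 CpG, 371 (4.03%) had no peak in either library.

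The 200 bases before the first annotated start of SMARCB1 and of the genes of the 2 alternative ATPases, SMARCA4 and SMARCA2, are shown from the GRCh37 reference (plus strand, CpG in capitals), because the promoter of the first had no peak and those of the other two lay at opposite ends of the members' ratios. They lie at chr22:24128918-24129117, chr19:11071408-11071607 and chr9:2014986-2015185.
SMARCB1: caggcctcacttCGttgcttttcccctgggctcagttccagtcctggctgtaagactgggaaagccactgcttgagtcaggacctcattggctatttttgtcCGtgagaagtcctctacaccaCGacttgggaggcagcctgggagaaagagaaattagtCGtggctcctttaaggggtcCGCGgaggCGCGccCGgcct
SMARCA4: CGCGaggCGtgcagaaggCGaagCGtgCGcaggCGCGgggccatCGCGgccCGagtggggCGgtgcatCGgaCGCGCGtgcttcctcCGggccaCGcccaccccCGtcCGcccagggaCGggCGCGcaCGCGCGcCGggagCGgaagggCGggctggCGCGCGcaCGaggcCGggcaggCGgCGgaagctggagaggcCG
SMARCA2: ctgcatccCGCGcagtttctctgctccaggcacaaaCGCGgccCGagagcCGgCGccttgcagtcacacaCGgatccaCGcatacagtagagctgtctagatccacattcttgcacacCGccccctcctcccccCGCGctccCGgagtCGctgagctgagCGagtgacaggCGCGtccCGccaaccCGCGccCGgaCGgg
These stretches hold 9 CpG for SMARCB1, 37 for SMARCA4 and 22 for SMARCA2. Their GC contents are 57.0%, 80.5% and 67.5%. The stretches end before the first start, whereas the 25 CpG given above for SMARCB1 were counted to 50 bases after its TSS. CpG in such 200-base stretches was not counted over all coding promoters.

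The lack of peaks reached far beyond the gene. In DMSO no peak was called between chr22:23970185 and chr22:24638842, a stretch of 669 kb that runs from 159 kb upstream of the SMARCB1 TSS to 459 kb downstream of the gene's end. In MAK683 the peak-free stretch was 699 kb, from chr22:23940225 to chr22:24638757. The part free of peaks in both libraries measured 669 kb and contains no unknown base of the reference. It was the fourth longest of 2816 stretches between neighbouring peaks on the chromosome, where the median was 1.77 kb, and 232 stretches of the genome were longer.

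Length alone does not set the SMARCB1 stretch apart, but the number of genes in it was high. It holds the TSSs of 19 coding genes, and only 3 of 199190 stretches held more. Those 3 cover keratin-associated protein genes on chromosomes 21 and 17 and olfactory receptor genes on chromosome 1, which are families read in hair follicle or olfactory epithelium. The genes upstream of SMARCB1 in the stretch are DRICH1, RGL4, ZNF70, VPREB3, C22orf15, CHCHD10, a mitochondrial protein gene, and MMP11, a matrix metalloproteinase gene. Those downstream are DERL3, SLC2A11, ENSG00000251357, the cytokine gene MIF, GSTT2B, DDTL, the tautomerase gene DDT, GSTT2, the glutathione transferase gene GSTT1, the calcineurin inhibitor gene CABIN1 and SUSD2. None of these promoters had a peak in either library. At the mean density of the chromosome, 68.0 peaks per Mb in DMSO and 56.6 in MAK683, a stretch of this length would hold 45.5 and 37.9 peaks. The peak lists carry no coverage outside peaks, so loss of the DNA, closed chromatin and poor mapping cannot be told apart here.

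The edges of the stretch were marked by low peaks. Within 500 kb of SMARCB1 there were 42 peaks in DMSO, of which 37 lay upstream and 5 downstream, and 36 in MAK683, of which 32 lay upstream and 4 downstream. Of these, 21 DMSO peaks and 25 MAK683 peaks overlapped a peak of the other library. The nearest upstream peak in DMSO had 8 tags (chr22:23969775-23970184, an intron of DRICH1) and no MAK683 counterpart, and the next one upstream in DMSO, at -196 kb from the SMARCB1 TSS, had 11 tags. In MAK683 the nearest had 10 tags (chr22:23939866-23940224, intergenic). The nearest downstream peaks had 9 tags in DMSO (chr22:24638843-24639886) and 8 in MAK683 (chr22:24638758-24638967), both in an intron of GGT5.

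The tallest peaks in the window were at the same sites in both libraries. An intergenic site 265 kb upstream of the SMARCB1 TSS reached 38 tags (2.29 RPM) in DMSO at chr22:23862071-23865795 and 33 tags (1.81 RPM) in MAK683. The site at the start of SPECC1L reached 34 tags (2.05 RPM) in DMSO at chr22:24666281-24667548 and 22 tags (1.20 RPM) in MAK683. A site in POM121L9P, 526 kb downstream, had 31 tags (1.87 RPM) in DMSO at chr22:24654927-24656025 and 24 tags (1.31 RPM) in MAK683. The peak at chr22:24643245-24643884 also had 22 tags in MAK683. Tall peaks therefore stood on both sides of the empty stretch, as the plot of peaks around SMARCB1 shows.

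**Figure D1:**
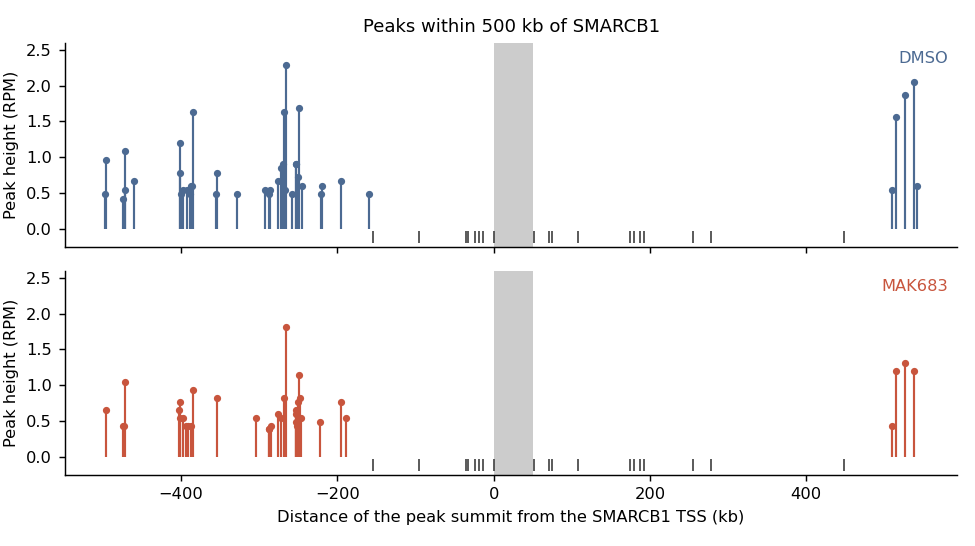
Height of each peak (RPM, vertical axis) within 500 kb of SMARCB1 against the distance of its summit from the SMARCB1 TSS (kb), DMSO above and MAK683 below. The grey band is the gene and the short ticks are the TSSs of the 19 coding genes in the peak-free stretch, in which neither library has a peak.

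Across the 9 members with a promoter peak in both libraries the tallest promoter peak ranged from 1.20 to 2.65 RPM in DMSO and from 0.602 to 1.97 RPM in MAK683. It was lower in MAK683 at 8 members and higher at 1, whereas 86.5% of all coding genes with a peak in both libraries were lower. The median log2 ratio was -0.43, against -0.46 over all such genes. The ratio was at least 1.5-fold lower at 4 members (36% of coding genes) and at least 1.5-fold higher at none (3.65% of coding genes). As a group these promoters thus sat close to the background shift between the libraries. The counting interval of each of the 9 member ratios included -0.46, so no member was set apart from that shift.

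**Figure D2:**
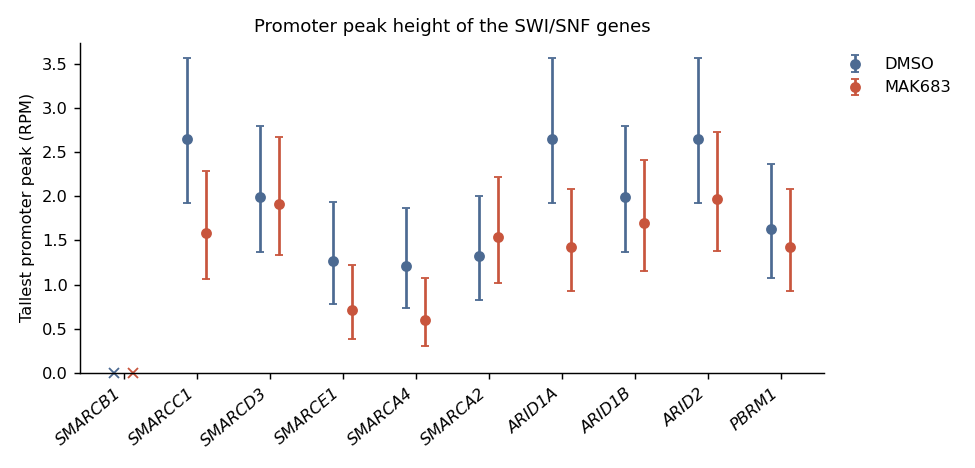
Height of the tallest peak within 3 kb of the TSS (RPM) for each member in DMSO and MAK683, with 95% Clopper-Pearson intervals that cover counting error only. Crosses mark SMARCB1, which has no peak in either library, and the intervals of the libraries overlap at every other member.

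Among the core and accessory subunits the ratios varied, but their counting intervals overlapped. SMARCC1, a scaffold of the core, had 44 tags (2.65 RPM) at its promoter in DMSO and 29 tags (1.59 RPM) in MAK683. Its log2 ratio was -0.74 (-1.42 to -0.06), one of 2 member ratios among 9 whose counting interval stayed below 0. This was so for 20.6% of the 14288 coding genes with a peak in both libraries, so the share among the members is close to the background. SMARCE1, which carries an HMG box, had 21 tags (1.27 RPM) and 13 tags (0.712 RPM), a ratio of -0.83 (-1.83 to 0.17). SMARCD3, a subunit known from heart and muscle, had 33 tags (1.99 RPM) and 35 tags (1.92 RPM), a ratio of -0.05 (-0.74 to 0.63), and 0.70 when the peaks in the window were summed. The SMARCD3 peak in DMSO was one region of 10791 bp (chr7:150940770-150951560), and in MAK683 the same ground was covered by 3 peaks, the largest of 5218 bp. A DMSO peak of 18 tags, with its summit at -28537 bp from the TSS used, covered the far upstream start of SMARCD3. In MAK683 2 peaks of 11 tags lay on either side of that start without covering it.

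The ratios of the 2 ATPase genes stood at opposite ends of the members, although their counting intervals overlapped. SMARCA4, the ATPase BRG1, had 20 tags (1.20 RPM) at chr19:11070850-11072032 in DMSO and 11 tags (0.602 RPM) in MAK683. Its log2 ratio of -1.0 (-2.06 to 0.06) was the lowest of the members and lay at percentile 5.71 of the 14288 coding genes with a peak in both libraries. The DMSO peak of SMARCA4 covered all 11 annotated starts of the gene, whereas the 2 MAK683 peaks covered 7 and 1 of them. SMARCA2, the alternative ATPase BRM, had 22 tags (1.33 RPM) in DMSO and 28 tags (1.53 RPM) in MAK683. Its ratio of 0.21 (-0.60 to 1.02) was the only positive one and lay at percentile 91.4 of the same genes, although the interval spans 0. The SMARCA2 promoter peak was 1470 bp long in DMSO, beside peaks of 16 and 15 tags further into the gene, and in MAK683 a single peak of 4497 bp (chr9:2014530-2019026) covered all 3. Summing all peaks in the window therefore turned the SMARCA2 ratio to -0.62.

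Of the genes of the DNA-binding ARID subunits of BAF, ARID1A had the taller promoter peak in DMSO and the lower one in MAK683. The coding median was 1.93 RPM in DMSO and 1.31 RPM in MAK683. ARID1A had 44 tags (2.65 RPM) in DMSO and 26 tags (1.42 RPM) in MAK683, a log2 ratio of -0.90 (-1.60 to -0.20). That peak (chr1:27018644-27020057 in DMSO) has its summit at -3407 bp from the TSS and covers another annotated start of the gene. The peak just before the ARID1A TSS had 22 tags in DMSO and 19 tags in MAK683, so the larger difference was at the upstream start. One more peak of 11 tags, over a start further downstream and with its summit 332 bp after the TSS, was called in DMSO alone, and taking the summit nearest to the TSS in each library turned the ratio to 0.65. ARID1B had 33 tags (1.99 RPM) and 31 tags (1.70 RPM), a ratio of -0.23 (-0.94 to 0.48). One DMSO peak of 4322 bp at the ARID1B start corresponded in MAK683 to peaks of 29 tags over the TSS and 31 tags with a summit 3113 bp into the gene, and summing the peaks in the window turned the ratio to 0.88.

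The genes of the PBAF subunits had negative ratios with intervals that span 0. ARID2 had 44 tags (2.65 RPM) in DMSO and 36 tags (1.97 RPM) in MAK683, a log2 ratio of -0.43 (-1.06 to 0.21), in peaks of 4936 and 5081 bp. PBRM1, the polybromo subunit, had 27 tags (1.63 RPM) and 26 tags (1.42 RPM), a ratio of -0.19 (-0.97 to 0.58). Neither interval excludes the median of all coding promoters.

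The sequence around the members' starts was richer in CpG than that of most coding genes. Over the 300 bases counted above, the members had a median of 33.5 CpG and a range from 25 at SMARCB1 and SMARCE1 to 55 at SMARCA4. The letters GGGCGG, the GC box bound by Sp1-type factors, were found on either strand in 9 members, SMARCB1 among them, and in 61.0% of all coding promoters. The ETS core CCGGAA was found in 4 members (ARID1B, SMARCA2, SMARCC1 and SMARCE1) and in 22.6% of promoters. CCAAT was found in 3 members (SMARCB1, SMARCE1 and PBRM1) and in 36.0% of promoters, and TATAAA in none of the members and in 9.79% of promoters. A match of letters is a description of the sequence and not a measured binding site.

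The other 21 SWI/SNF genes gave a similar picture, with a promoter peak in both libraries at all 21. Their median log2 ratio was -0.54, with 17 lower and 4 higher in MAK683. The lowest ratios were at DPF2, a BAF subunit that reads histone acetylation, with 28 tags in DMSO and 9 tags in MAK683 (log2 ratio -1.78, -2.86 to -0.69), at SMARCC2, the paralog of SMARCC1, with 47 and 25 tags (-1.05, -1.75 to -0.35), and at DPF1 with 34 and 21 tags (-0.83, -1.62 to -0.05). The highest was at BCL11B, a transcription factor that associates with BAF, with 16 tags in DMSO and 33 tags in MAK683 (0.91, 0.04 to 1.77). BCL11A followed with 27 and 39 tags (0.39, -0.32 to 1.10), and BRD7, a PBAF subunit, with 15 and 19 tags (0.20, -0.77 to 1.18). BCL11B was the single gene of either list at least 1.5-fold higher in MAK683.

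**Figure D3:**
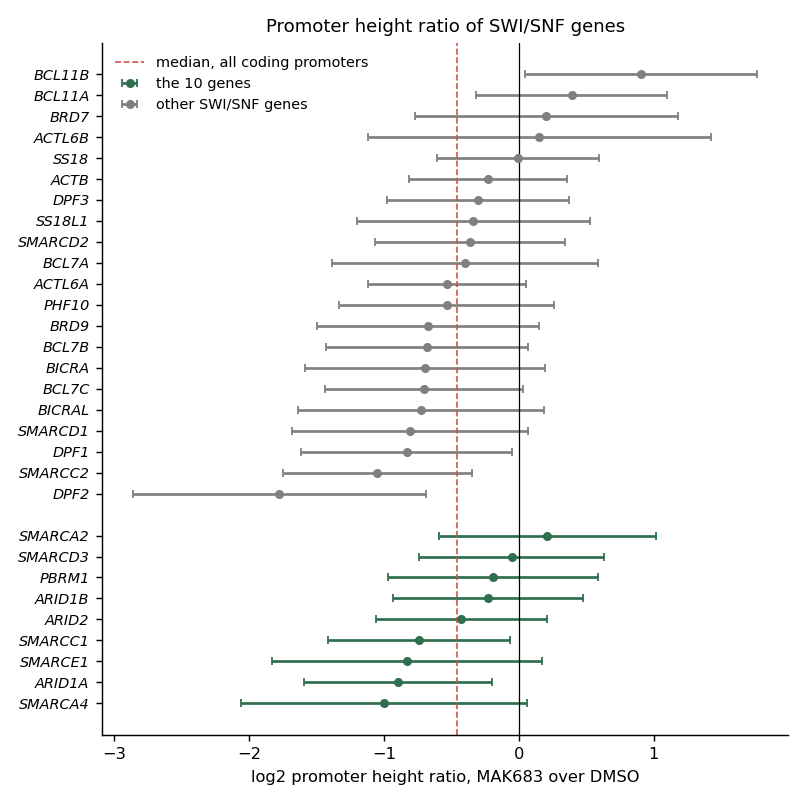
log2 ratio of promoter height, MAK683 over DMSO, with 95% counting intervals for the 9 members with a peak in both libraries and the 21 other SWI/SNF genes. The dashed line is the median of all coding promoters at -0.46, and the intervals of DPF2, BCL11A and BCL11B do not include it.

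Inside the members the libraries differed by gene. The 10 genes held 167 peaks in DMSO and 128 in MAK683, with fewer in MAK683 at 6 genes, more at 1 and equal numbers at 3. SMARCB1, with no peak inside, is counted among the equal. Among the 17319 coding genes with a peak inside, a set without SMARCB1, 41.4% had fewer in MAK683 and 35.1% had more. The numbers inside all coding genes summed to 85022 in DMSO and 98764 in MAK683. Over the 3666 coding genes of at least 100 kb, the median density was 2.18 peaks per 100 kb in DMSO and 3.94 in MAK683. The 1 member with more was SMARCA2. Without it the other 9 held 164 peaks in DMSO and 92 in MAK683.

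SMARCA2 (chr9:1980290-2193624, 213 kb) held 3 peaks in DMSO, all at the promoter, and 36 in MAK683. At least 33 more peaks inside the gene in MAK683 than in DMSO were found at 211 of the 20163 coding genes, which is 1.05%. Its density was 1.41 peaks per 100 kb in DMSO and 16.9 in MAK683. Among the 3666 coding genes of at least 100 kb, this was percentile 36.9 in DMSO and percentile 93.4 in MAK683. Of the MAK683 peaks, 34 lay away from the promoter, 31 of them with the summit in an intron. They were lower than the promoter peak, with 7 to 15 tags against 28. Their median of 0.547 RPM, or 10 tags, equalled the median of all MAK683 peaks. Of the 34, 12 had a -log10 q-value of at least 5. With peaks kept only at a -log10 q-value of at least 10, SMARCA2 held 3 peaks in DMSO and 1 in MAK683. That 1 peak was the broad promoter peak, which covered all 3 DMSO peaks. The larger number of peaks in MAK683 thus rests on peaks below that cutoff. The surroundings differed in the same direction: within 500 kb on either side of SMARCA2 there were 5 peaks in DMSO and 60 in MAK683, a 12-fold difference both inside and outside the gene. Whether the SMARCA2 peaks belong to a change of the wider region was not tested.

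The tallest MAK683 peaks inside SMARCA2 that overlapped no DMSO peak had 15 tags (0.821 RPM). One lay in an intron 51732 bp from the TSS (chr9:2066779-2067271). The other, 142528 bp from the TSS (chr9:2157399-2158557), covered 7 of the 18 annotated transcript starts of the gene, those of short transcripts near its 3′ end. Next came 3 intronic peaks of 14 tags (0.766 RPM), at chr9:2011266-2011620, chr9:2115786-2116651 and chr9:2128011-2129038. None of these 5 sites had a peak in DMSO, where the lowest peak that could be called had 6 tags.

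ARID1B (chr6:157097154-157531913, 435 kb) held the most peaks of the members in both libraries, 93 in DMSO and 56 in MAK683. Its density was 21.4 and 12.9 peaks per 100 kb, at percentile 96.7 and 88.7 of the long coding genes. Most were intronic: 89 of the 92 DMSO peaks away from the promoter and 53 of the 54 MAK683 peaks. Of the ARID1B peaks, 43 of 93 in DMSO overlapped a MAK683 peak and 42 of 56 in MAK683 overlapped a DMSO peak. With a -log10 q-value of at least 5, ARID1B kept 43 peaks in DMSO and 20 in MAK683. At 10 it kept 12 and 6, so its high counts also rest largely on peaks below these cutoffs. Around ARID1B the order was the other way, with 41 flanking peaks in DMSO and 68 in MAK683.

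The tallest peak inside any member away from its promoter was in ARID1B, 244241 bp from the TSS (chr6:157341793-157343833), with 52 tags (3.13 RPM) in DMSO and 39 tags (2.14 RPM) in MAK683. This was above the promoter height of every member in both libraries, and the peak covers 1 of the 7 annotated starts of ARID1B. A neighbour at chr6:157340219-157341302 had 24 tags (1.45 RPM) in DMSO and 32 tags (1.75 RPM) in MAK683, the opposite order. At each of these adjacent sites the counting intervals of the libraries overlapped. The next tallest site, at chr6:157465640-157468310, had 32 tags (1.93 RPM) in DMSO and 23 tags (1.26 RPM) in MAK683. The tallest ARID1B peaks in DMSO without a MAK683 peak had 18 tags (chr6:157351131-157351750), 16 tags (chr6:157148144-157148688) and 14 tags (chr6:157219241-157219842), all in introns.

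The bases around 2 of these summits are shown as examples (GRCh37, plus strand, 201 bases centred on the summit, CpG in capitals). The first site has a peak in both libraries and the second was called in MAK683 alone. They are chr6:157342653-157342853 in ARID1B and chr9:2066979-2067179 in SMARCA2.
ARID1B: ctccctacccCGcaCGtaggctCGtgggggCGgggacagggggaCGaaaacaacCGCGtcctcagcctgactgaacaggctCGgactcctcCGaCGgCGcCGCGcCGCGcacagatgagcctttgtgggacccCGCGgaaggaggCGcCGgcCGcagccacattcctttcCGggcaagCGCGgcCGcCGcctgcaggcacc
SMARCA2: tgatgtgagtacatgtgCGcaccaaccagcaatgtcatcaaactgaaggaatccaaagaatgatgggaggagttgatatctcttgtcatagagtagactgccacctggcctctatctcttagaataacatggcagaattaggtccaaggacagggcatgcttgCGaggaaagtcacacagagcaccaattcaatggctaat
The ARID1B site holds 25 CpG at 71.6% GC and the SMARCA2 site 2 CpG at 45.3% GC. These sites also differ in height and position. The ARID1B peak had 52 tags in DMSO and covers an annotated start, and the SMARCA2 peak had 15 tags in MAK683. Away from the promoter, the median was 2 CpG for DMSO peaks inside ARID1B and 2 for MAK683 peaks inside SMARCA2. The ARID1B example is therefore not typical of that gene. The 34 MAK683 peaks inside SMARCA2 away from the promoter had a median GC content of 45.3% around their summits, against 51.2% over all MAK683 peaks, and the 92 DMSO peaks inside ARID1B had 48.8%, against 52.7% over all DMSO peaks.

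**Figure D4:**
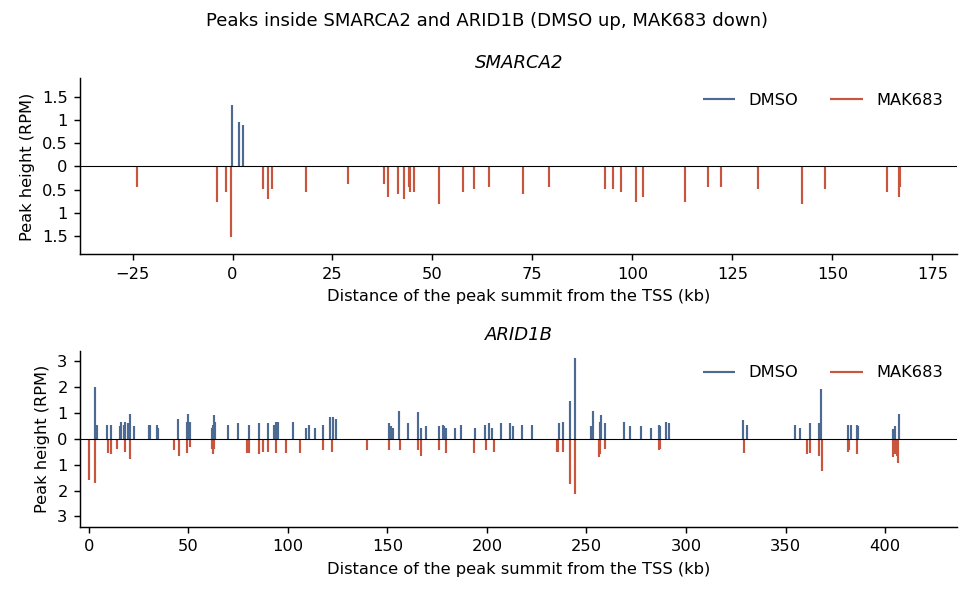
Height of each peak inside SMARCA2 and ARID1B (RPM, DMSO drawn upward and MAK683 downward) against the distance of its summit from the TSS (kb). SMARCA2 has 3 DMSO peaks at its start and 36 MAK683 peaks along the gene, and ARID1B has peaks throughout in both libraries.

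The remaining members held fewer peaks in MAK683 or the same number. SMARCA4 held 17 peaks in DMSO and 8 in MAK683, and ARID1A 23 and 8. An intronic site near the 3′ end of SMARCA4, 114742 bp from its TSS (chr19:11186238-11186777), had 20 tags in DMSO, as many as the promoter, and 9 tags in MAK683. PBRM1 held 8 and 2 peaks, ARID2 6 and 3, and SMARCC1 3 and 1. SMARCD3 held 13 peaks and SMARCE1 1 peak in either library. At an intronic site of ARID2, with its DMSO summit 27485 bp from the TSS, 7 tags in DMSO stood against 15 tags in MAK683. This was the opposite order to its promoter, with overlapping counting intervals.

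The flanks held fewer peaks in MAK683 at 7 members and more at 3. Over the 19972 coding genes with a peak within 500 kb, 45.6% had fewer in MAK683 and 52.7% had more. Around SMARCA4 there were 161 peaks in DMSO and 93 in MAK683, around ARID1A 172 and 112, around SMARCC1 114 and 74, and around PBRM1 174 and 154. Around SMARCD3 the numbers were 195 and 163, and around SMARCE1 66 and 49. ARID2, like ARID1B, had fewer peaks inside in MAK683 but more around it, 41 in DMSO and 53 in MAK683. Among the other SWI/SNF genes the numbers inside were larger in MAK683 as a sum, 114 in DMSO and 211 in MAK683, with 10 genes fewer, 7 more and 4 equal. BCL11A held 5 and 43, BCL11B 4 and 49, and DPF3 1 and 33, and together these genes held most of the MAK683 sum.

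**Figure D5:**
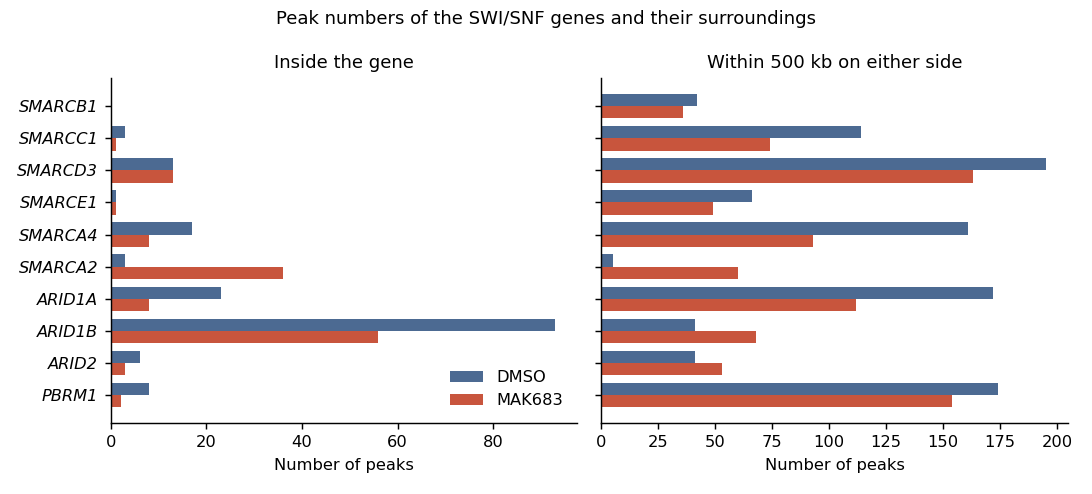
Number of peaks inside each member (left) and within 500 kb on either side of it (right) in DMSO and MAK683. SMARCA2 is the 1 member with more peaks inside in MAK683, and its surroundings differ in the same direction.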

How the data were processed

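The members and gene lists were chosen with earlier results of these data known. The authors trimmed paired-end reads with Trim Galore, aligned them to hg19 with Bowtie2 and called peaks on each library alone. Per the file headers, MACS 2.1.1.20160309 treated reads as single ends, shifted by 100 and extended to 200 bp, without a control or local background, at a q-value cutoff of 0.05 and with 1 tag kept per position. The submitters' processing notes name MACS2 2.1.0 and 2.2.7.1. The deposited peak tables give the pileup signal at the summit, the ratio (fold enrichment) over background, and −log10 of the p-value and q-value. Because tags are counted as unpaired extended ends, a pileup is not a fragment count, and long open regions can be split or merged differently in each library.

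From these, heights were computed as pileup per 1000000 filtered tags, with Clopper-Pearson intervals, and log2 ratios with normal intervals on the tag counts. A promoter height is that of the tallest peak within 3 kb of the TSS of the GENCODE 44 (GRCh37) main transcript; peaks overlapping by 1 bp counted as shared. Named were all 10 members; of the 21 other SWI/SNF genes the 3 highest and 3 lowest ratios and any without a peak in both libraries; coding genes in the peak-free stretch; its nearest peaks and the 3 tallest within 500 kb; and the 3 tallest inside members, with ties. Other peaks, and BCL11A, BCL11B and DPF3 by peak number, were chosen after their values were seen. Python 3.11.15, pandas 2.3.3, numpy 2.4.6 and scipy 1.17.1 were used. The scripts were tested on simulated data. Alternatives were peak filters, windows, TSS sets, scalings and height definitions.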

Additional observations from a re-analysis of the deposited data

How the results depend on the processing

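With 1 library per group no result can be checked against replicates, and no paired analysis was possible because each group has a single library. Of 88 recomputed member ratios, 78 stayed within their counting interval with the same sign. That number includes values that could not move, so it overstates stability. A floor height for a missing peak applied to no member with a ratio. The q-value filters kept the same tallest peak wherever a ratio remained. Centring on all promoters left 4 members lower, turned the members' median to 0.032 and moved that of the other SWI/SNF genes to -0.075; it also reversed ARID1B (0.23), ARID2 (0.032), PBRM1 (0.27) and SMARCD3 (0.41). SMARCD3 was 0.085 without depth scaling and 0.0047 by fold enrichment. Summed heights gave 0.88 for ARID1B, 0.70 for SMARCD3 and -0.62 for SMARCA2, where 1 broad MAK683 peak replaces 3. Taking the summit nearest the TSS gave 0.65 for ARID1A, since different peaks are then compared.

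Counts followed the peak filter. At a -log10 q-value of at least 5, DMSO and MAK683 kept 79 and 51 peaks inside the members, 13 MAK683 peaks inside SMARCA2 (against 3 in DMSO), and 25 and 18 peaks within 500 kb of SMARCB1. At 10 these were 26 and 16, 1 for SMARCA2 in MAK683 (against 3 in DMSO), and 13 and 7. The 1 MAK683 peak left in SMARCA2 covers all 3 DMSO peaks. Equal numbers of peaks left 20 in SMARCA2 in MAK683. Leaving out 3 kb around the TSS left 0 DMSO peaks in SMARCA2. Windows of 250 kb held 6 peaks in either library and windows of 1 Mb held 92 and 96. Height minimums chosen after seeing the data gave, at 0.5 RPM, 74 MAK683 peaks inside the members and 20 inside SMARCA2, and at 0.7 RPM, 36 and 29 inside the members and 8 inside SMARCA2. The peak-free stretch around SMARCB1 and the number of members with a promoter peak stayed within 1.5-fold under every alternative run. That number was not unchanged, however. At a -log10 q-value of at least 10 it was 9 in DMSO and 7 in MAK683, where SMARCA4 and SMARCE1 dropped out. The members' median log2 ratio was then -0.23, with 6 members lower in MAK683.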
